A study of Mus musculus with 6 samples.

Results

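Nuclear tRNAs that carry valine, isoleucine and methionine were followed through small RNA libraries of mouse hearts with and without Elac2, the gene of RNase Z. The members were every mature and precursor tRNA row of the deposited table whose name gave valine (Val), isoleucine (Ile), methionine (Met) or initiator methionine (iMet), without the isoleucine tRNAs of anticodon TAT. This gave 89 features, 33 mature and 56 precursor, out of 739 nuclear tRNA features and 30638 features in all. A name such as Val-TAC-1-2 gives the amino acid, the anticodon in DNA letters, the isodecoder (a group of gene copies with 1 mature sequence) and, for precursors, the gene copy. Mature features are named down to the isodecoder, so several precursor features belong to 1 mature feature.

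Transfer RNAs are transcribed by RNA polymerase III as precursors with a 5′ leader and a 3′ trailer. RNase P removes the leader and RNase Z the trailer, after which the CCA end is added and the tRNA can be charged with its amino acid. Valine, isoleucine and methionine tRNAs outside the TAT family carry no intron as a rule, so removal of the ends is the main cutting step on the way to the mature form. The initiator tRNA reads the start codon of an mRNA, while the elongator Met-CAT reads AUG codons inside it. Anticodons that begin with A are read with inosine in that place.

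The 6 mice were C57BL/6, with 1 library each from RNA of the crude heart. The 3 control mice are titled L/L (an Elac2 exon flanked by loxP sites on both alleles, no cre) and carry the genotype label Elac2 +/+. The 3 knockout mice are titled L/L, cre and labelled Elac2 -/-, and their cre is driven by a muscle creatine kinase promoter, so excision was aimed at muscle cells while RNA came from all cells of the heart. Age and sex of the mice were not given in the sources used here, and the level of Elac2 itself was not analysed here. In such bulk RNA, fewer cells of a type and less RNA per cell cannot be told apart. The replicate labels do not say more about how the mice were chosen, and p-values measure the spread between these libraries.

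Libraries were made from inserts of 15 to 100 nt and held 13510061 to 16248673 counts. The size window admits whole tRNAs, precursors and fragments alike, and counts do not separate them. All 7 heart muscle microRNA genes looked for were counted in every library, and their summed level was 117837 to 148037 CPM (counts per 1e6 of a scaled library) in control and 72669 to 93284 CPM in knockout hearts. Most of this sum came from Mir1a-1 (mean 62248 against 41794 CPM) and Mir1a-2 (62354 against 40728 CPM). Mir208a was also lower without overlap (51.2 to 61.8 against 39.8 to 46.1 CPM). Mir499, Mir133a-1 and Mir133a-2 overlapped between the groups, as did Mir208b, whose mean was higher in knockout hearts (10.5 against 18.2 CPM). The 2 red cell genes found were counted in every library (504 to 1189 against 877 to 1425 CPM), as was the endothelial gene Mir126a (19531 to 23763 against 17620 to 20972 CPM) and both smooth muscle genes (26672 to 33574 against 22072 to 30035 CPM). Of 3 fibroblast genes, Mir199a-1 was counted (637 to 878 against 1233 to 1310 CPM) while Mir214 and Mir199a-2 were at 0. Of the leukocyte genes, Mir150 was counted (36.7 to 54.2 against 26.9 to 33.1 CPM) and Mir223 was at 0. The liver gene Mir122 lay between 0.546 and 2.34 CPM, and the neuronal Mir124a genes at no more than 0.226 CPM. The part of these shifts between groups in the tRNA results was not tested.

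RefSeq (GRCm38.p6) lists 53 genes of these anticodon families under names such as n-TVtac1. Of these, 28 lie on chromosome 13, between positions 21167604 and 23530419. The 3 genes of valine anticodon TAC lie elsewhere: n-TVtac1 on chromosome 19 (12011931 to 12012003), n-TVtac2 on chromosome 19 (12012266 to 12012338) and n-TVtac3 on chromosome X (160766110 to 160766182). RefSeq's numbering and the copy numbers of the table are separate systems, so no single copy was tied to a position. Tested features below are those past edgeR's filter on low counts, and a call is a Benjamini-Hochberg adjusted p under 0.05 by edgeR's quasi-likelihood test over the whole table. Levels are CPM scaled by TMM (a trimmed mean that aligns libraries), and differences are log2 fold changes, called log2 ratios below, of knockout over control.

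The clearest change was in precursors of 2 anticodons, Ile-AAT and Val-TAC, which rose in knockout hearts while the precursors of the other 4 measured anticodons were not called. Of the mature forms, all 3 valine anticodons and iMet-CAT fell, and Ile-AAT and Met-CAT were not called. Summed per anticodon, 2 of 6 tested precursor sums were called higher, where 23.1% of the 998 rows of that table were called higher, and 2 of 6 lies near that background. No precursor sum was called lower by edgeR, none had an unadjusted p under 0.05 in that direction, and DESeq2 also called 0. Of 6 mature sums 4 were called lower, where 28.2% of all rows were called lower, and 0 were called higher by edgeR, by unadjusted p under 0.05 or by DESeq2. The median log2 ratio was 0.16 over the 6 precursor sums and -0.61 over the 6 mature sums, beside -0.0012 over all rows. The sums of anticodon GAC of valine and GAT of isoleucine held at most 1 count in all libraries together for each form and were not tested.

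Precursors of isoleucine tRNA Ile-AAT stood at 2.54, 1.46 and 1.97 CPM in control replicates 1 to 3 and at 14.7, 14.4 and 13.8 CPM in knockout replicates 1 to 3. Every knockout library was several times above every control library, and the groups were far apart relative to their spread. The mean went from 1.99 ± 0.536 to 14.3 ± 0.453 CPM (SD, n = 3), 7.21 times higher, with a log2 ratio of 2.85 (SE 0.25, adjusted p = 4.25e-06). Mature Ile-AAT, the form that reads isoleucine codons, gave few reads: 1.56, 1.92 and 2.30 CPM in control and 1.89, 2.85 and 2.03 CPM in knockout hearts. These values overlapped and were not called (log2 ratio 0.22, SE 0.31, adjusted p = 0.563).

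Precursors of valine tRNA Val-TAC, which reads GUA codons, stood at 2.02, 2.25 and 2.35 CPM in control and at 14.1, 7.75 and 9.78 CPM in knockout hearts. The control libraries lay close together, while the knockout libraries were more spread and all above them. The mean went from 2.21 ± 0.172 to 10.5 ± 3.24 CPM (SD, n = 3), 4.78 times higher, with a log2 ratio of 2.25 (SE 0.28, adjusted p = 4.60e-05). Both precursor rises were called under each of 14 alternatives of scaling, tool, filter, replicate block and left-out library, with log2 ratios from 1.999 to 3.38 for Ile-AAT and from 1.40 to 2.80 for Val-TAC. The mature Val-TAC form, a single feature, stood at 22.4, 24.1 and 25.2 CPM in control and at 16.9, 10.8 and 11.3 CPM in knockout hearts. It fell by 0.88 on the log2 scale (SE 0.23, adjusted p = 0.00654), 1.84 times lower, a call that did not hold when knockout replicate 2 was left out (-0.52, adjusted p = 0.141), nor when replicate 3 was (-0.59, adjusted p = 0.0675). Leaving out these libraries also moved log2 ratios over all features upward, by medians of 0.24 and 0.22. Counted over both forms together, Val-TAC was not called (log2 ratio -0.15, adjusted p = 0.598), with 24.4, 26.4 and 27.6 CPM in control against 30.9, 18.6 and 21.1 CPM in knockout hearts.

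Precursors of the other valine anticodons were not called. Val-CAC precursors gave the most reads of the 6 anticodons, with 21.0, 27.2 and 21.5 CPM in control and 24.2, 28.3 and 27.5 CPM in knockout hearts. The groups overlapped (log2 ratio 0.20, SE 0.20, adjusted p = 0.427). Val-AAC precursors stood at 6.76, 7.66 and 8.80 CPM against 8.28, 7.28 and 7.98 CPM, also overlapping (0.02, SE 0.21, adjusted p = 0.947). Within the valine precursor reads of a library, Val-TAC took up 6.77%, 6.07% and 7.20% in control and 30.3%, 17.9% and 21.6% in knockout hearts. This share, which does not depend on library scaling, averaged 6.68% ± 0.572 and 23.2% ± 6.35 (SD, n = 3; exact two-sided permutation p = 0.1, the smallest that 3 against 3 can give, and 0.2 adjusted over 6 valine shares). It was computed after the data had been seen.

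Mature valine tRNAs made up most of the mature reads described here and fell in each anticodon. Mature Val-AAC stood at 255, 268 and 283 CPM in control and at 134, 107 and 206 CPM in knockout hearts, a fall by 1.80 times in the means (log2 ratio -0.85, SE 0.23, adjusted p = 0.00989). Knockout replicate 3 lay nearest to the controls, but the groups did not overlap. Mature Val-CAC went from 78.5 ± 8.04 to 55.4 ± 4.38 CPM (SD, n = 3; log2 ratio -0.50, SE 0.18, adjusted p = 0.0363). The Val-AAC call did not hold when knockout replicate 1 was left out (-0.54, adjusted p = 0.0968), nor when replicate 2 was (-0.41, adjusted p = 0.205). The Val-CAC call did not hold when leaving out control replicate 1 (adjusted p = 0.0535) or 3 (0.121), without knockout replicate 1 (0.234), 2 (0.545) or 3 (0.339), and with factors from small nuclear RNA (snRNA) and ribosomal RNA (rRNA) genes, where its sign also turned (0.05). It was also lost without a filter (0.119) and with the replicate block (0.129), and so held in 6 of the 14 alternatives. Over both forms together Val-CAC was not called (-0.31, adjusted p = 0.143).

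Of the methionine tRNAs the mature initiator was called lower and the mature elongator was not, and their difference was tested as a share within libraries. Mature iMet-CAT stood at 11.6, 9.69 and 11.4 CPM in control and at 7.48, 5.14 and 7.38 CPM in knockout hearts, without overlap. It fell by 0.71 on the log2 scale (SE 0.23, adjusted p = 0.0230), a call that did not hold without control replicate 3 (-0.71, adjusted p = 0.0586) or any of the knockout libraries (-0.58 without replicate 1, -0.32 without 2 and -0.60 without 3, adjusted p = 0.101, 0.402 and 0.0822). Nor did it hold without a filter (adjusted p = 0.0751), with snRNA- and rRNA-based factors (-0.16, adjusted p = 0.703) or over both forms together (-0.39, adjusted p = 0.123). Mature Met-CAT stood at 6.96, 10.1 and 5.03 CPM against 7.12, 7.12 and 7.07 CPM, a wide control spread around a narrow knockout one (log2 ratio -0.05, SE 0.27, adjusted p = 0.881). The iMet share of mature methionine reads was 62.6%, 49.0% and 69.4% in control and 51.2%, 41.9% and 51.0% in knockout hearts. These shares overlapped (60.3% ± 10.4 against 48.1% ± 5.32, SD, n = 3; exact two-sided permutation p = 0.3, 0.6 adjusted over both forms). Among precursors the iMet share was 76.2% ± 1.71 against 79.3% ± 6.12 (exact two-sided permutation p = 0.6, 0.6 adjusted).

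Precursor sums of neither methionine tRNA were called. Precursors of iMet-CAT stood at 4.42, 4.96 and 5.74 CPM in control and 5.81, 5.38 and 5.19 CPM in knockout hearts (log2 ratio 0.11, SE 0.22, adjusted p = 0.685). Those of Met-CAT gave the fewest reads, at 1.37, 1.41 and 1.97 CPM against 1.74, 1.82 and 0.828 CPM (log2 ratio -0.12, SE 0.37, adjusted p = 0.809). Both sets of values overlapped between the groups.

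**Figure D1:**
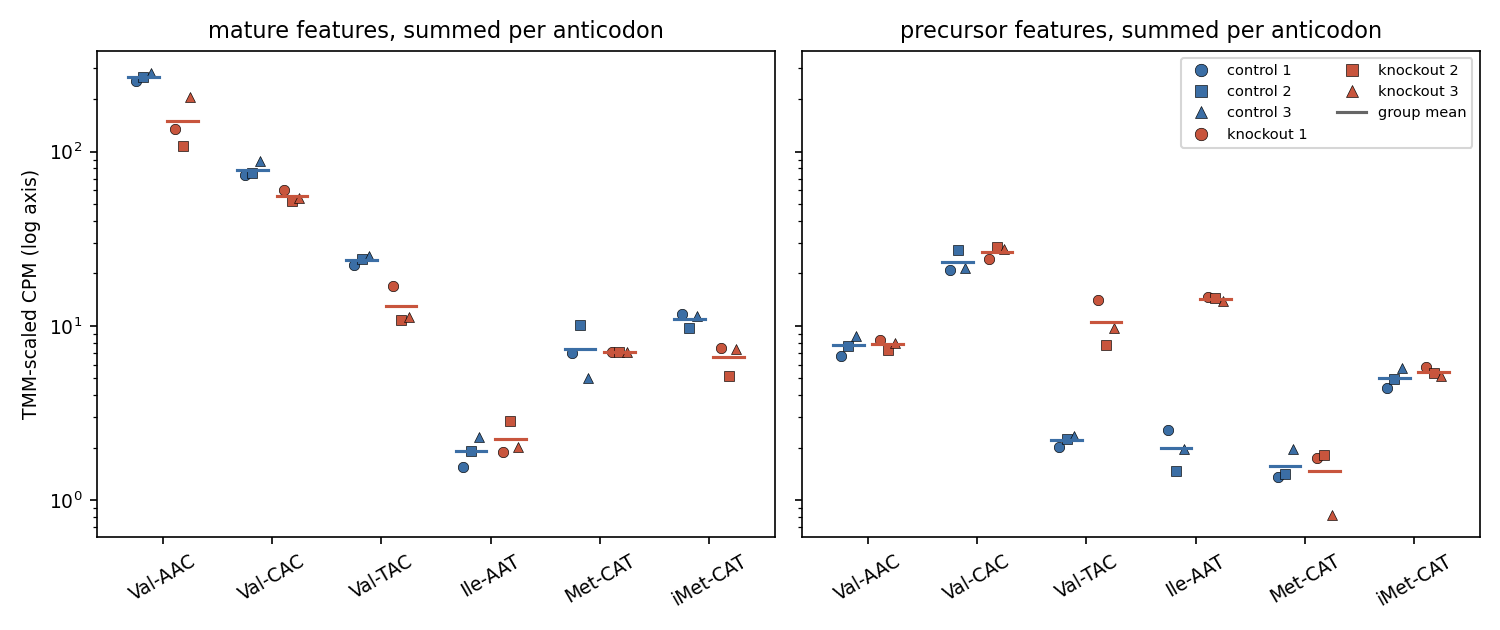
TMM-scaled CPM (log axis) of mature (left) and precursor (right) reads summed per anticodon, 1 point per library and a line at each group mean. Knockout points of Ile-AAT and Val-TAC precursors lie above all controls, at 13.8 to 14.7 and 7.75 to 14.1 CPM, while mature valine and iMet-CAT points lie below.

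The calls of mature sums changed with the library scaling, whereas the precursor rises of Ile-AAT and Val-TAC were called under each scaling tried. With factors from snRNA and rRNA genes, which moved log2 ratios upward by a median of 0.54 over all features, 0 mature sums were called lower and 4 precursor sums were called higher. With factors from small nucleolar RNA (snoRNA and scaRNA) genes, which moved them by -0.84, 4 precursor sums were called lower and those of Ile-AAT and Val-TAC higher. A comparison within each library avoids this choice: the precursor reads of an anticodon as a share of its precursor and mature reads. The rule that assigned reads fitting both forms, not given in the sources used here, bears on this share.

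The precursor share was higher in every knockout than in every control library for 5 of the 6 anticodons when all features were counted, and for 4 when tested features alone were. Of the precursors called higher, 7, all of Ile-AAT, Val-TAC and iMet-CAT, could not have passed the filter without knockout reads. The same held for Val-AAC-2-1, tested but not called, so the count of 4 is no separate support. The share was not computed for other nuclear anticodons. Their median log2 ratios were -0.68 over 41 mature and 0.59 over 39 precursor sums, so whether 5 of 6 is particular to these anticodons was not tested. For Val-TAC the precursor share was 8.24%, 8.55% and 8.51% in control and 45.5%, 41.7% and 46.4% in knockout hearts. Precursor reads were thus a small minority in control and nearly as many as mature reads in knockout hearts. The means were 8.44% ± 0.166 and 44.6% ± 2.51 (SD, n = 3), 5.28 times higher. Exact 95% (Clopper-Pearson) intervals, which cover counting error only, reached at most 11.5% in any control library and began at 35.3% or above in the knockout libraries. For Ile-AAT the share was 61.9%, 43.3% and 46.2% in control and 88.6%, 83.5% and 87.2% in knockout hearts. Its control libraries rested on 63, 60 and 78 reads, with intervals from 30.6% to 73.9%, and the knockout libraries on 229, 218 and 211 reads, with intervals from 77.9% to 92.4%.

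Initiator iMet-CAT had precursor shares of 27.5%, 33.8% and 33.4% in control and 43.7%, 51.1% and 41.3% in knockout hearts. For Val-CAC they were 22.4%, 26.6% and 19.7% against 28.7%, 35.4% and 33.7%, and for Val-AAC 2.58%, 2.78% and 3.02% against 5.82%, 6.35% and 3.73%. Over tested features alone the Val-CAC groups overlapped (21.7%, 26.1% and 18.8% against 25.9%, 32.0% and 31.2%, exact two-sided permutation p = 0.2), and the Val-AAC difference went from 2.51 to 1.52 percentage points. In these 3 anticodons the mature sum was called lower and the precursor sum was not called. Elongator Met-CAT was the exception, with 16.4%, 12.3% and 28.1% against 19.7%, 20.4% and 10.5%, which overlapped. Each of the 5 gave p = 0.1 in the exact two-sided permutation test (0.12 adjusted over 6 anticodons), which cannot pass 0.05 with 3 against 3, and Met-CAT gave 0.8. Leaving out any 1 library kept the sign of the 5 differences, from 35.2 to 37.5 percentage points for Val-TAC and from 32.4 to 41.7 for Ile-AAT.

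**Figure D2:**
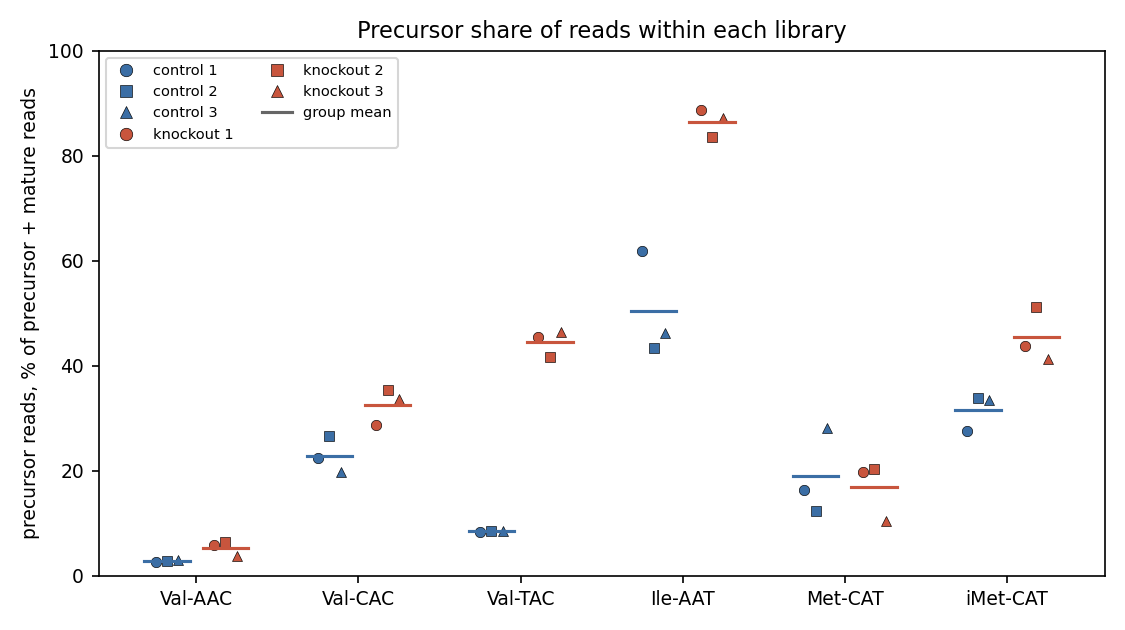
Precursor reads as a percentage of precursor plus mature reads of each anticodon, 1 point per library and a line at each group mean. Groups are apart for all anticodons but Met-CAT, and the gap is 36.1 percentage points for Val-TAC and 36.0 for Ile-AAT.

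Single precursor features were rare, and the filter on low counts bears on what could be seen. Of 56 precursor features 14 had no count in any library, and 15 were tested. Of those 15, 8 were called higher (23.2% of the 1144 tested features of the table were called higher), 0 lower and 7 neither. The count of 0 lower calls by edgeR was also 0 at an unadjusted p under 0.05 and by DESeq2. Among 99 tested precursor features of other nuclear tRNAs, 35 were called higher and 14 lower. Of the 15, 5 passed the filter with no control library at its minimum: Ile-AAT-1-4, Ile-AAT-1-5, Ile-AAT-1-8, Val-TAC-1-2 and iMet-CAT-3-1. These had to be higher in knockout hearts to be tested at all. Ile-AAT-1-1 and Ile-AAT-1-2 also had too few control libraries at the minimum to pass without knockout reads, which makes 7 of the 8 called. Val-AAC-2-1, tested but not called, also needed knockout reads, with 2 control libraries and 1 knockout library at the minimum. Neither the count of 8 nor its one-sidedness therefore describes all members. Without a filter 13 of 42 counted precursors were called higher and 0 lower, where 3.13% of all 9254 counted features were called higher and 10.1% lower. Of 35 precursors with an adjusted p in the authors' deposited table, 12 were higher and 0 lower there (8.78% and 20.6% of its 2597 features with an adjusted p), and the 8 calls made here were among its calls with the same sign.

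Of the Ile-AAT copies, Ile-AAT-1-1 and Ile-AAT-1-2 rose, with 2 and 1 control libraries at the filter's minimum, too few to pass without knockout reads. Ile-AAT-1-4, Ile-AAT-1-5 and Ile-AAT-1-8 were also called, but had no control library at that minimum and could be tested only through their knockout reads. The copy Ile-AAT-1-2 had 5, 3 and 11 reads in control and 54, 56 and 64 in knockout hearts (log2 ratio 3.55, SE 0.38, adjusted p = 1.80e-05). Ile-AAT-1-5 had 5, 0 and 1 reads against 38, 31 and 41 (4.46, SE 0.60, adjusted p = 8.98e-05), and Ile-AAT-1-4 had 4, 0 and 0 against 19, 30 and 13 (4.19, SE 0.78, adjusted p = 0.000775). The fitted size of these 2 copies rests on control replicate 1, which holds nearly all their control reads: without it the log2 ratios were 6.34 and 7.61. Without control replicate 2 they were 3.84 and 3.58, and for Ile-AAT-1-4 3.56 without control replicate 3. Ile-AAT-1-1, the copy with most control reads, had 13, 8 and 11 against 38, 30 and 26 (1.90, SE 0.34, adjusted p = 0.000623). Ile-AAT-1-8, named after its values were seen, had 7, 8 and 7 reads against 32, 16 and 21 (1.99, SE 0.38, adjusted p = 0.000842).

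The make-up of the Ile-AAT precursor reads also differed between the groups. Copy Ile-AAT-1-1 held 33.3%, 30.8% and 30.6% of them in control and 18.7%, 16.5% and 14.1% in knockout hearts, with Ile-AAT-1-2 the leading copy in each knockout library. This copy was singled out after its values were seen, and no test was run on it. The copies Ile-AAT-1-3 (0, 3 and 1 reads against 12, 7 and 9) and Ile-AAT-1-6 (4, 3 and 5 against 9, 10 and 7) were below the filter. Reads of gene copies with 1 mature sequence can be told apart only in leader and trailer, and the counting of reads that match several copies, not given in the sources used here, decides their split.

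Val-TAC-1-1 rose and carried most reads of this anticodon's precursors, with 28, 38 and 40 in control and 174, 79 and 117 in knockout hearts (log2 ratio 2.17, SE 0.29, adjusted p = 9.86e-05). Val-TAC-1-2 had 3, 0 and 0 reads against 16, 13 and 11 (adjusted p = 0.000943), and was tested only because its knockout libraries passed the filter. The ratio of its scaled reads was 17.3, with an exact 95% interval of 5.50 to 87.3 for counting error alone. Val-TAC-1-3, not tested, had 0, 2 and 3 reads against 4, 6 and 2, and the last of these lay within the control range of CPM.

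Of the initiator copies 3 were tested. The 2 with most reads, iMet-CAT-1-1 (32, 35 and 45 reads in control against 24, 20 and 23 in knockout hearts) and iMet-CAT-1-7 (16, 30 and 38 against 23, 20 and 14), were not called (log2 ratios -0.36, SE 0.27, adjusted p = 0.280, and -0.17, SE 0.35, adjusted p = 0.705). The rare copy iMet-CAT-3-1 was called higher, with 3, 2 and 4 reads against 10, 15 and 10 (log2 ratio 2.28, SE 0.48, adjusted p = 0.00191), and was tested only because its knockout libraries passed the filter. Copy iMet-CAT-1-5, below the filter and named after its values were seen, had 1, 0 and 0 reads against 10, 6 and 14, a ratio of scaled reads of 38.9 with an exact counting interval of 6.46 to 1586. Together these 2 rare copies, chosen by their values and so not tested, held 5.88%, 2.27% and 3.81% of iMet precursor reads in control and 25.0%, 30.9% and 34.8% in knockout hearts. The share of the leading isodecoder iMet-CAT-1 was 94.6% ± 0.728 against 81.0% ± 4.01 (SD, n = 3; exact two-sided permutation p = 0.1, 0.167 adjusted over 10 isodecoder shares).

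**Figure D3:**
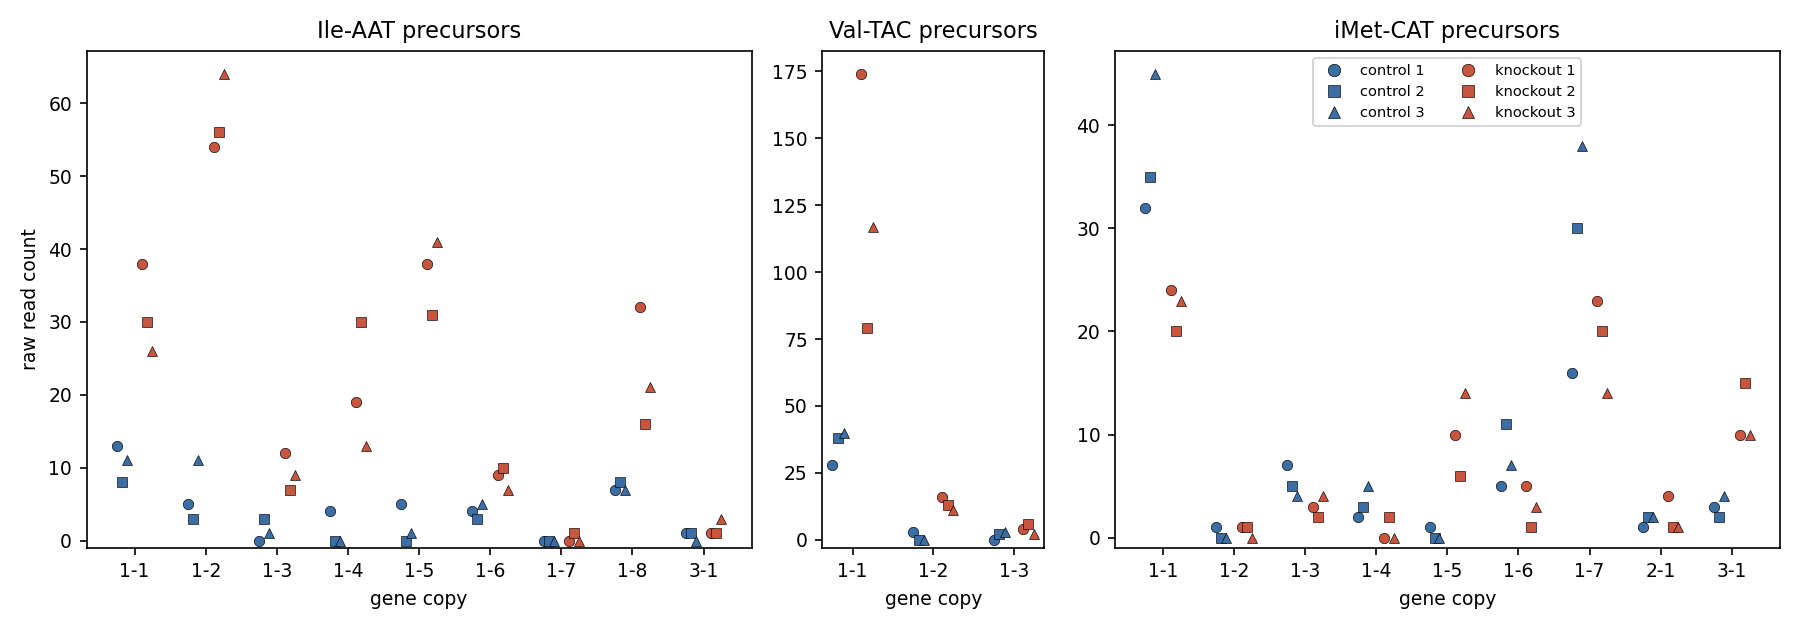
Raw read counts of each precursor gene copy with at least 1 read for Ile-AAT, Val-TAC and iMet-CAT, 1 point per library, with 1 linear axis per panel. Knockout points lie above the controls for Ile-AAT-1-2 (54 to 64 against 3 to 11 reads) and Val-TAC-1-1 (79 to 174 against 28 to 40), and below them for iMet-CAT-1-1.

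Valine precursors outside Val-TAC were dominated by a few copies that were not called. Val-CAC-2-1 had 161, 252 and 191 reads in control and 147, 192 and 151 in knockout hearts (log2 ratio 0.08, SE 0.23, adjusted p = 0.778). Val-CAC-2-3 had 148, 214 and 179 against 140, 114 and 171 (0.03, SE 0.22, adjusted p = 0.924). Together they held 95.4% ± 1.18 of the Val-CAC precursor reads in control hearts against 86.5% ± 1.29 (SD, n = 3), a pair chosen after its values were seen. Among the rest, Val-CAC-2-2 had 1 read in each control library and 10, 13 and 6 in knockout libraries, a ratio of scaled reads of 12.5 (exact counting interval 3.88 to 64.3), and Val-CAC-3-1 had 4, 5 and 1 against 14, 10 and 14. Both were below the filter, were called higher without it (adjusted p = 0.000754 and 0.00771) and were named after their values were seen. The leading Val-AAC copy, Val-AAC-5-1, also named then, had 83, 118 and 126 reads against 73, 61 and 77 (-0.25, SE 0.22, adjusted p = 0.368). Its isodecoder held 79.8%, 86.8% and 78.3% of the Val-AAC precursor reads in control and 64.0%, 66.3% and 72.6% in knockout hearts, without overlap (exact two-sided permutation p = 0.1, 0.167 adjusted).

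Precursors of elongator Met-CAT gave the fewest reads. Its 1 tested copy, Met-CAT-1-2, had 11, 12 and 20 reads against 3, 10 and 4 (log2 ratio -0.94, SE 0.50, adjusted p = 0.139). Met-CAT-3-1, below the filter and named after its values were seen, had 2, 4 and 2 reads against 17, 7 and 2, and knockout replicate 3 lay within the control range of CPM. It was called higher without a filter (adjusted p = 0.0489). The leading isodecoder Met-CAT-1 held 71.4%, 64.0% and 66.7% of Met-CAT precursor reads in control and 20.8%, 43.5% and 45.5% in knockout hearts (exact two-sided permutation p = 0.1, 0.167 adjusted). Over mature and precursor forms 3 Met features were tested and 0 were called by edgeR, 0 at an unadjusted p under 0.05, and 0 of 9 by DESeq2.

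As counted, mature isodecoders of 1 anticodon moved in opposite directions. The counting of reads that match several isodecoders, not given in the sources used here, bears on how reads were divided between them. Of 33 mature features 7 had no count and 16 were tested, of which 3 were called higher and 4 lower (23.2% and 27.0% of all tested features, near the shares here), with a median log2 ratio of -0.31. The most abundant, Val-AAC-1, had 219, 223 and 240 CPM in control and 66.1, 51.7 and 143 CPM in knockout hearts. It fell by 1.39 on the log2 scale (SE 0.32, adjusted p = 0.00347), and knockout replicate 3 was more than 2 times above the other knockout libraries but below every control. Val-AAC-3 went the other way, with 6.50, 4.96 and 4.04 CPM in control and 16.9, 16.8 and 19.2 CPM in knockout hearts (log2 ratio 1.77, SE 0.24, adjusted p = 8.73e-05). Val-AAC-4 also rose, from 3.64, 2.70 and 3.44 to 11.6, 10.2 and 9.78 CPM (1.69, SE 0.23, adjusted p = 9.35e-05).

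The rises of Val-AAC-3 and Val-AAC-4 were called in all 14 alternatives, with log2 ratios of at least 0.92 and 0.84. The fall of Val-AAC-1 was called in 13 and lost with snRNA- and rRNA-based factors (-0.73, adjusted p = 0.203). Val-AAC-1 held 84.6% ± 1.44 of mature Val-AAC reads in control hearts against 55.5% ± 11.8 (SD, n = 3; exact two-sided permutation p = 0.1, 0.167 adjusted). Val-AAC-3 and Val-AAC-4 together, chosen by their values, held 3.97%, 2.86% and 2.65% against 21.2%, 25.1% and 14.1%. Val-AAC-5 (23.1 ± 4.67 to 20.8 ± 3.46 CPM, adjusted p = 0.607) and Val-AAC-2 (9.89 ± 1.77 to 13.4 ± 2.48 CPM, SD, n = 3, adjusted p = 0.135), named after their values were seen, were not called.

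Mature Val-CAC showed the same kind of split. Val-CAC-2 had 54.3, 53.1 and 65.8 CPM in control and 30.3, 25.9 and 26.4 CPM in knockout hearts, and fell by 1.07 on the log2 scale (SE 0.19, adjusted p = 0.000630). Its share of mature Val-CAC reads was 74.4%, 70.8% and 74.97% in control and 50.3%, 50% and 48.8% in knockout hearts (exact two-sided permutation p = 0.1, 0.167 adjusted). Val-CAC-1, named after its values were seen, had 18.2 ± 1.90 against 23.9 ± 1.37 CPM (SD, n = 3; log2 ratio 0.39, SE 0.20, adjusted p = 0.115). The rare Val-CAC-3, likewise named then, rose from 1.10 ± 0.293 to 2.66 ± 0.809 CPM (1.28, SE 0.34, adjusted p = 0.00838). The call of Val-CAC-2 was lost with snRNA- and rRNA-based factors (-0.52, adjusted p = 0.0603) and that of Val-CAC-3 with factors from snoRNA genes (0.44, adjusted p = 0.273).

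**Figure D4:**
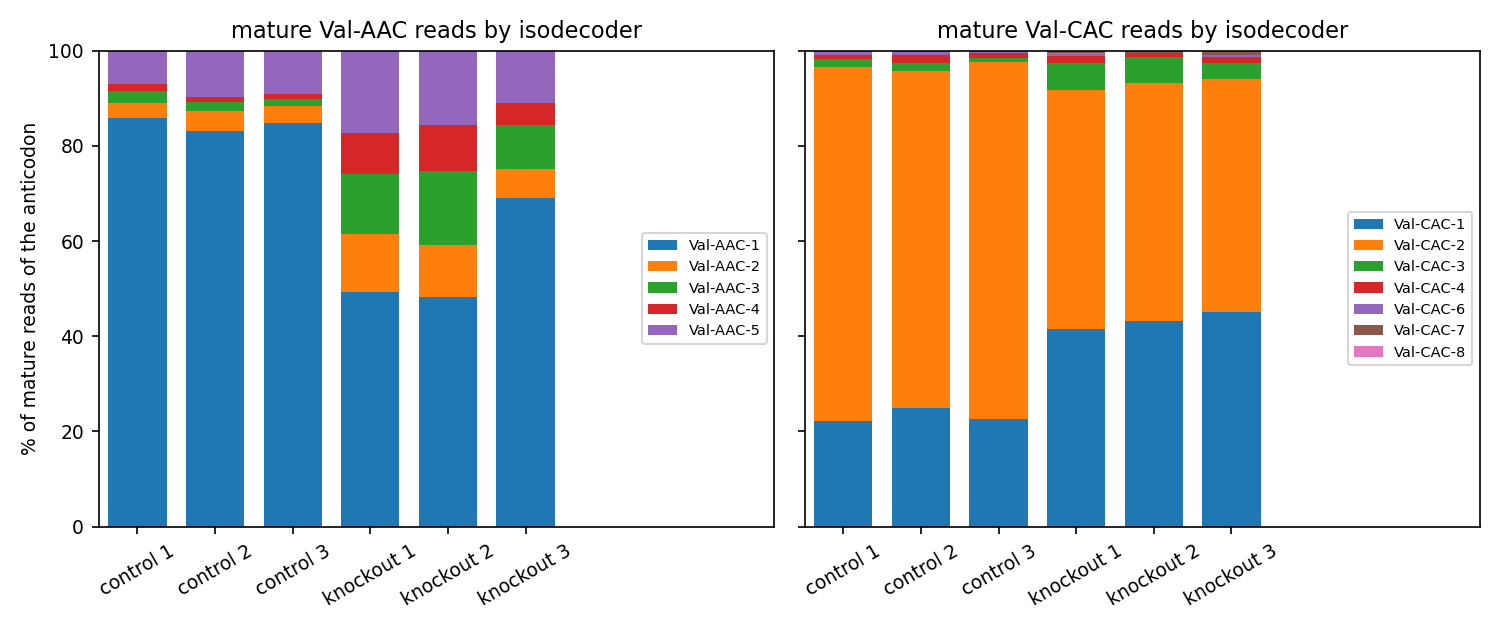
Percentage of mature Val-AAC (left) and Val-CAC (right) reads by isodecoder in each library, as stacked bars that sum to 100. Val-AAC-1 takes 83.1% to 85.9% of its anticodon in control and 48.2% to 69.1% in knockout libraries, and Val-CAC-2 takes 70.8% to 74.97% against 48.8% to 50.3%.

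The mature initiator features all had lower means in knockout hearts, and 1 of 3 was called. iMet-CAT-2 fell, from 2.99, 2.59 and 3.17 CPM to 1.162, 1.58 and 1.28 CPM (log2 ratio -1.12, SE 0.27, adjusted p = 0.00497), a call that did not hold without knockout replicate 1 (-0.81, adjusted p = 0.0677) or with snRNA- and rRNA-based factors (-0.58, adjusted p = 0.173). The most abundant, iMet-CAT-1, had 7.22, 5.75 and 6.72 CPM against 5.16, 3.01 and 5.42 CPM (-0.53, SE 0.26, adjusted p = 0.115). Mature Met-CAT-1 had 5.07, 7.66 and 3.77 CPM against 5.67, 5.38 and 5.87 CPM (0.04, SE 0.28, adjusted p = 0.918), and Met-CAT-6 had 1.69, 2.08 and 0.765 CPM against 0.872, 1.19 and 0.903 CPM (-0.61, SE 0.41, adjusted p = 0.233). The only tested mature isoleucine feature, Ile-AAT-1, had 23, 31 and 38 reads against 26, 36 and 24 (0.29, SE 0.30, adjusted p = 0.442). Of 21 mature features with an adjusted p in the authors' deposited table, 3 were higher and 4 lower there, and they include the 7 called here, with the same sign.

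**Figure D5:**
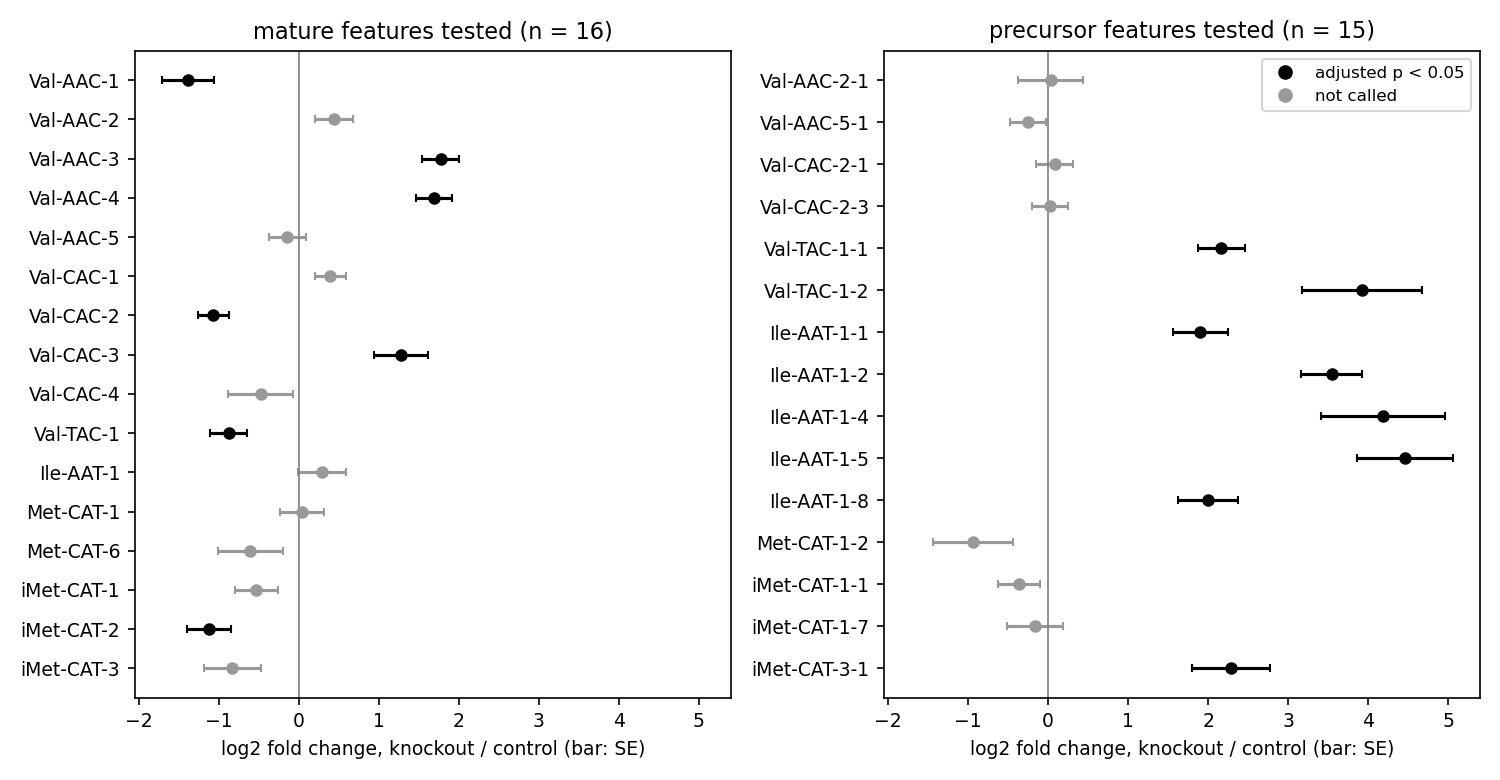
Log2 ratio of knockout against control (x axis) for the 16 mature (left) and 15 precursor (right) features tested, with bars of 1 SE and called features in black. Calls fall on both sides of 0 among mature forms, and the 8 precursor calls lie between 1.90 and 4.46. Of these 8, 7 could not have passed the filter on low counts without knockout reads, 5 of them with no control library at its minimum.

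The mature forms described here made up a larger part of the mature nuclear tRNA reads in knockout hearts, though a smaller part of the whole library. They held 1.42%, 1.39% and 1.19% of all mature nuclear tRNA reads in control and 4.81%, 4.37% and 4.60% in knockout hearts, without overlap (exact two-sided permutation p = 0.1, n = 3 per group). Of their own library they held 0.0422%, 0.0425% and 0.0475% in control and 0.0216%, 0.0153% and 0.0256% in knockout hearts. Their precursors held 13.7%, 13.7% and 11.4% of precursor tRNA reads against 11.5%, 11.2% and 12.5%, which overlapped (exact two-sided permutation p = 0.3, n = 3 per group). Of the sums of other nuclear anticodons, Ile-TAT included, 4 of 41 mature ones were called higher and 23 lower, and 16 of 39 precursor ones higher and 6 lower. Their medians were -0.68 and 0.59, and the mature ones ranged from -4.28 to 3.14.

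The mitochondrial tRNAs for the same amino acids are made from another genome by transcripts that RNase Z also cuts, and all 3 fell. The valine tRNA mt-Tv went from 956 ± 422 to 469 ± 46.5 CPM (log2 ratio -1.03, SE 0.28, adjusted p = 0.00852), the isoleucine tRNA mt-Ti from 301 ± 141 to 126 ± 8.02 CPM (-1.25, SE 0.29, adjusted p = 0.00335) and the methionine tRNA mt-Tm from 96.2 ± 41.0 to 17.3 ± 2.62 CPM (SD, n = 3; -2.47, SE 0.31, adjusted p = 5.11e-05). Control replicate 1 was the lowest control for each. The RNA of RNase P, Rpph1, which cuts the 5′ end, had 51.0 ± 8.81 against 56.0 ± 1.76 CPM (log2 ratio 0.14, SE 0.19, adjusted p = 0.577). Its relative Rmrp had 393 ± 63.9 against 529 ± 62.1 CPM (0.43, SE 0.18, adjusted p = 0.0691). The other 6 of the 8 RNAs listed with them, Rn7sk, Rny1, Rny3, Vaultrc5, Rn7s1 and Rn7s2, were all called lower.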

How the data were processed

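Whole-number raw counts, 1 column per mouse, were deposited by the authors, as were log2 fold changes and adjusted p-values of their own test, which are cited only for their calls. The submitters' processing notes name cutadapt (1.14), Bowtie2 (2.2.9), featureCounts (1.5.1), DESeq2 (1.16.1) and build mm10. Annotation, strand setting, treatment of multiply aligned reads and merging of the 4 technical replicates per mouse were not given in the sources used here. Only the raw count column of each mouse was read for the tests here.

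After filterByExpr (a minimum count of 10, scaled to library size, and a minimum total of 15, by group), 1144 features of the whole table were scaled by TMM and fitted by edgeR's quasi-likelihood functions glmQLFit and glmQLFTest (edgeR 4.0.16 in R 4.3.3) with no covariate. P-values were adjusted by Benjamini-Hochberg over all tested rows, and the SE is the log2 fold change over the square root of F. For sums, all nuclear tRNA rows were replaced by totals per anticodon and form, keeping the TMM factors. Within-library shares got exact permutation tests, two-sided (SciPy 1.17.1). The fit was checked on simulated counts. Libraries were distinct (lowest chi-square per degree of freedom 79.1).

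Every anticodon sum was named, with the 2 most abundant tested features per amino acid and form, and up to 2 called features per direction with groups apart. The list of other genes held mt-Tv, mt-Ti, mt-Tm and 8 RNA polymerase III or processing RNAs. Members and lists were chosen with earlier results of these data known. Alternatives were other scalings, DESeq2 1.42.0, no filter, a replicate block, both forms together and each library left out. Positions came from RefSeq, and no tRNA sequence was used.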

Additional observations from a re-analysis of the deposited data

How the results depend on the processing

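Calls of single mature features were 3 higher and 4 lower. Scaling on snRNA and rRNA genes made them 6 and 0, and scaling on snoRNA and scaRNA genes made 10 lower. These scalings moved log2 fold changes over all features by medians of 0.54 and -0.84. The counts under them include that shift, and the shares of all features called under them are not given here. Leaving out 1 library gave 3 to 5 higher. Precursor features called lower, 0 in the main test, numbered 1 when scaled by total counts and 6 on snoRNA genes, and 13 were called higher without a filter. Of mature anticodon sums, 4 called lower became 0 with snRNA- and rRNA-based factors, 2 without a filter and 1 over both forms together, where 1 was higher (Ile-AAT, 2.08), and 0 to 4 when 1 library was left out. Precursor sums called higher went from 2 to 4 with snRNA- and rRNA-based factors, and 4 were called lower with snoRNA-based ones. Leaving out a knockout library moved log2 fold changes over all features upward by a median of 0.21 to 0.24, and the cause was not tested. The weaker falls of mature sums without a knockout library include this shift of the whole table.

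Signs turned in sums that were not called. Scaled by total counts these were mature Ile-AAT (-0.13) and precursor Val-AAC (-0.32), Val-CAC (-0.14) and iMet-CAT (-0.23). With miRNA-based factors they were precursor Val-AAC (-0.17) and iMet-CAT (-0.072), and with DESeq2 size factors precursor Val-AAC (-0.0064). With snoRNA-based factors they were mature Ile-AAT (-0.62) and precursor Val-AAC (-0.83), Val-CAC (-0.64) and iMet-CAT (-0.73). With snRNA- and rRNA-based factors they were mature Met-CAT (0.48) and Val-CAC (0.051, called in the main test) and precursor Met-CAT (0.40). When 1 library was left out, mature Met-CAT ranged from -0.30 to 0.21, precursor Met-CAT from -0.23 to 0.37 and precursor Val-AAC from -0.028 to 0.32. The precursor share difference of Met-CAT ranged from -5.43 to 2.50 percentage points, the iMet share difference of precursors from -0.43 to 5.34, and the Val-TAC share difference of mature valine from -1.18 to 0.73.

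Same-numbered libraries did not deviate together (correlations -0.13, -0.02 and -0.19). These values give no sign of pairing by number but cannot show that the mice were not paired. With the replicate block the calls of single features stayed at 3 higher and 4 lower mature and 8 higher precursor ones, the mature Val-CAC sum was not called (-0.50, adjusted p = 0.129) and mature Met-CAT turned sign (0.00165). Depth limits single copies: 41 of 56 precursor features were not tested.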
